A study of Homo sapiens with 6 samples.

Results

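The genes described here are 26 genes in which variants are linked to amyotrophic lateral sclerosis (ALS) or frontotemporal dementia (FTD), leaving out genes for RNA-binding proteins. They were taken by symbol, and all 26 were found among the 27961 gene rows of the count files. ALS is a disease of motor neurons and FTD a disease of the frontal and temporal cortex, and in most cases of ALS and many of FTD the RNA-binding protein TDP-43 leaves the nucleus and aggregates. Many of the 26 genes, though not all, act in a few shared routes. These are clearing of proteins by ubiquitin, the ATPase VCP and autophagy receptors, sorting in endosomes and lysosomes, transport along axons, and defence against oxidants. TDP-43 is encoded by TARDBP and binds UG-rich RNA, and in neurons its loss is known to alter the splicing and level of many transcripts.

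The cells were SH-SY5Y, a line from a human neuroblastoma that resembles sympathetic neurons, grown with serum, and total RNA depleted of rRNA was sequenced. Cells received lentivirus carrying 1 of 3 short hairpin RNAs, with polybrene at 8 µg/mL, and 48 hours later went into puromycin at 2 µg/mL for 3 days, so each library comes from a selected pool. The groups were the TARDBP hairpin TRCN0000016038, control hairpin 2 (SHC016) and control hairpin 1 (SHC007), with 2 libraries each. TARDBP was targeted by 1 hairpin only, so an effect of lowering TARDBP and an effect of that hairpin on other RNAs cannot be told apart. Whether both libraries of a hairpin were separate cultures is not stated. The p-values cover only how far libraries of the same hairpin differ, and that may be technical spread. Differences between the control hairpins do not count as spread in them. Levels are given as CPM, counts scaled to a common library size with TMM factors, for replicate 1 and then replicate 2 of each hairpin. Changes are log2 fold changes, TARDBP hairpin over the mean of both control hairpins unless stated, with a standard error (SE). A change was called, and is written as rose, fell, higher or lower, where the adjusted p of edgeR's quasi-likelihood test was below 0.05 over all 17163 genes and repeat families tested.

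Library totals ran from 18605745 to 21698339 counts. TARDBP stood at 18.9 and 24.0 CPM under the TARDBP hairpin, 92.7 and 81.5 under control hairpin 2, and 80.9 and 72.4 under control hairpin 1, and fell to 26.2% of the control level (adjusted p = 1.68e-05). The mitochondrial ribosomal RNA row RNR2 was the most abundant in every library, at 8.58% and 8.84% of counts under the TARDBP hairpin, 4.44% and 4.43% under control hairpin 2, and 7.67% and 5.28% under control hairpin 1. Of 12 noradrenergic neuroblastoma markers, 11 were tested, and their summed level was 1313 and 1156 CPM under the TARDBP hairpin, 1930 and 2084 CPM under control hairpin 2 and 2756 and 2970 CPM under control hairpin 1. HAND2, a transcription factor of the sympathetic lineage, was present in all 6 libraries, while TH, the tyrosine hydroxylase of catecholamine synthesis, was at most 0.147 CPM. The summed level of 8 fibroblast markers was 178 and 192 CPM under the TARDBP hairpin, 1846 and 1963 CPM under control hairpin 2, and 1471 and 1486 CPM under control hairpin 1, and COL3A1 made up most of it in the controls only (52.0 and 63.7 CPM, 1583 and 1652 CPM, and 1321 and 1307 CPM in the same order). Of the 8, 6 were called lower and 1 higher, DCN (6.26 and 8.31 CPM, 2.00 and 2.12 CPM, and 0.612 and 1.13 CPM). Of the 11 noradrenergic markers 8 were called lower and 1 higher, GATA3 (0.35, adjusted p = 0.00855). GATA3 had 238 and 206 CPM under the TARDBP hairpin, 152.9 and 152.7 under control hairpin 2, and 205 and 193 under control hairpin 1. None of the 11 noradrenergic markers was called higher against control hairpin 1 alone. Of 9 glial and 8 immune markers 1 each was tested, and MOG, OLIG1, OLIG2, AIF1 and CD3E had no count. In bulk RNA, fewer cells of a type and less RNA per cell cannot be told apart. The part of these marker and rRNA differences in the results below was not tested.

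With the TARDBP hairpin, the phosphoinositide phosphatase gene FIG4, the lysosomal membrane protein gene TMEM106B and the neuregulin receptor gene ERBB4 rose by 1.81-fold to 2.24-fold. The cyclin F gene CCNF fell to 45.8% of the control level, the dynactin gene DCTN1 to 49.2%, the endoplasmic reticulum tether gene VAPB to 59.4% and the microtubule-severing gene SPAST to 61.2%. SOD1, VCP, CHMP2B and TUBA4A were not called between any of the hairpins. Of the 26 genes 25 had enough counts to be tested, the exception being ANG, and 13 were called, 7 higher and 6 lower. That is 52% of those tested, beside 48.2% of all genes and families tested, so the share of changed genes among them was near the background. The background was 23.9% higher and 24.3% lower, against 28% and 24% of the 25 disease genes. Their median log2 fold change was -0.07, against 0.04 over everything tested. In 9 of the 13 (36% of the 25, against a background of 39.3%) both TARDBP hairpin libraries lay beyond all 4 control libraries. These were TMEM106B, FIG4, ERBB4 and TBK1 above them, where the background was 19.2%, and DCTN1, CCNF, SPAST, VAPB and ANXA11 below them, where it was 20.1%.

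**Figure D1:**
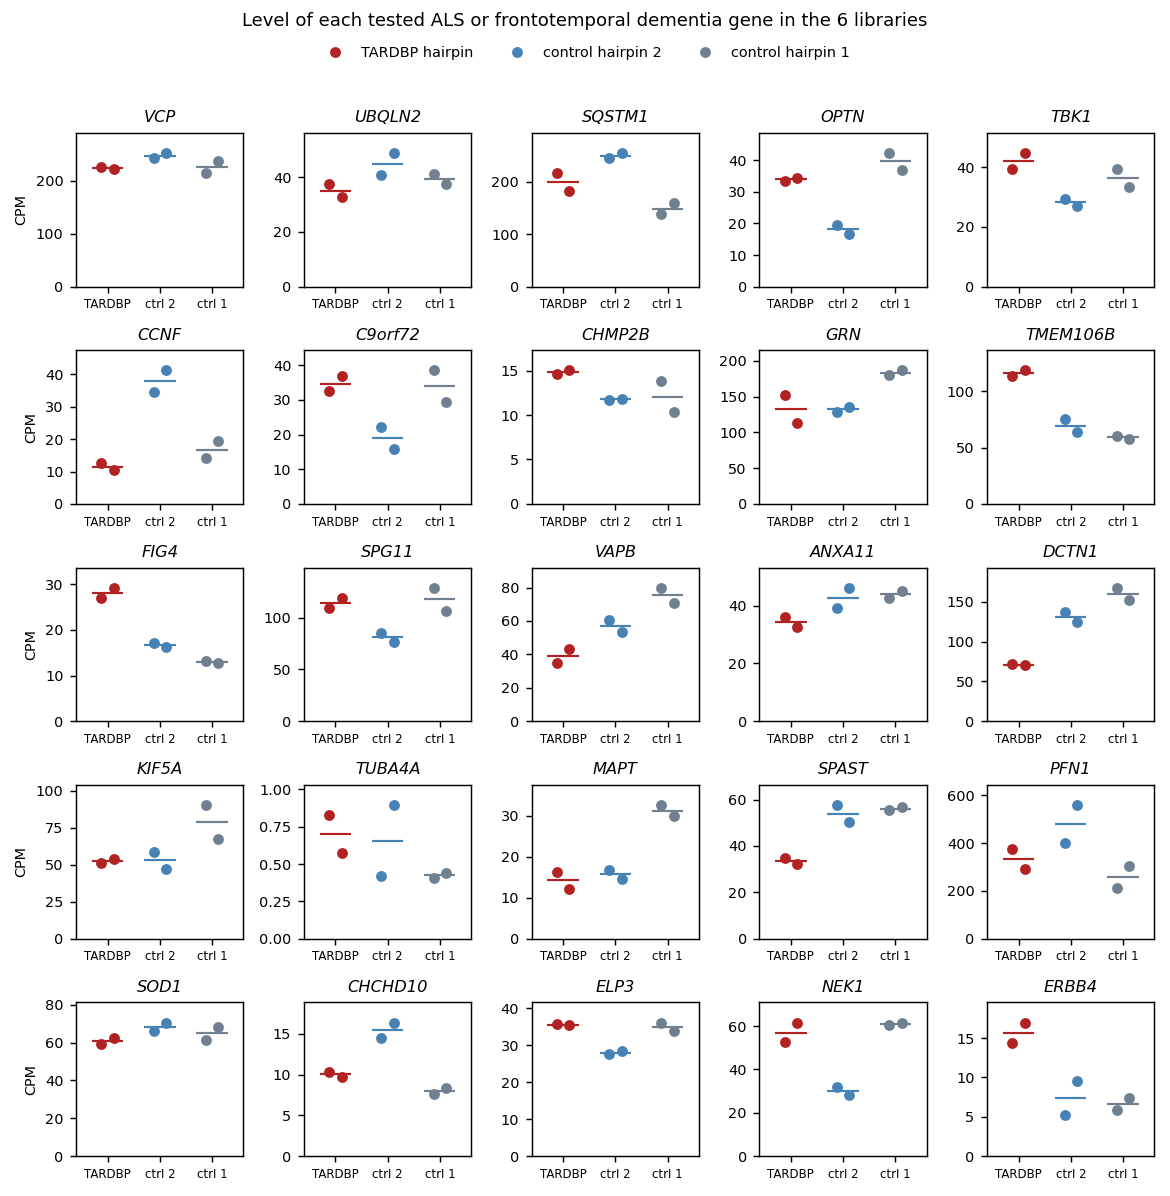
Level of the 25 tested genes in each library, in CPM on a linear axis from 0, for the TARDBP hairpin, control hairpin 2 (ctrl 2) and control hairpin 1 (ctrl 1). Points are single libraries, 2 per hairpin, and lines their means. DCTN1, SPAST and VAPB lie below every control library and FIG4, TMEM106B and ERBB4 above, while OPTN, NEK1 and MAPT lie close to 1 control hairpin and far from the other.

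The control hairpins themselves differed in many of these genes. Against control hairpin 1, control hairpin 2 had 16 of the 25 called, or 64%, where the background was 43.2%. There were 5 higher and 11 lower, or 20% and 44%, against backgrounds of 22.8% and 20.4%. The comparison of the TARDBP hairpin with control hairpin 2 called 17, or 68%, beside a background of 50.2%. Of these 9 were higher (36%, background 24%) and 8 lower (32%, background 26.2%). The comparison with control hairpin 1 called 12, or 48%, beside 42.9%, with 4 higher (16%, background 21.1%) and 8 lower (32%, background 21.8%). All these comparisons share libraries, so they are set side by side below and not counted as separate support.

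**Figure D2:**
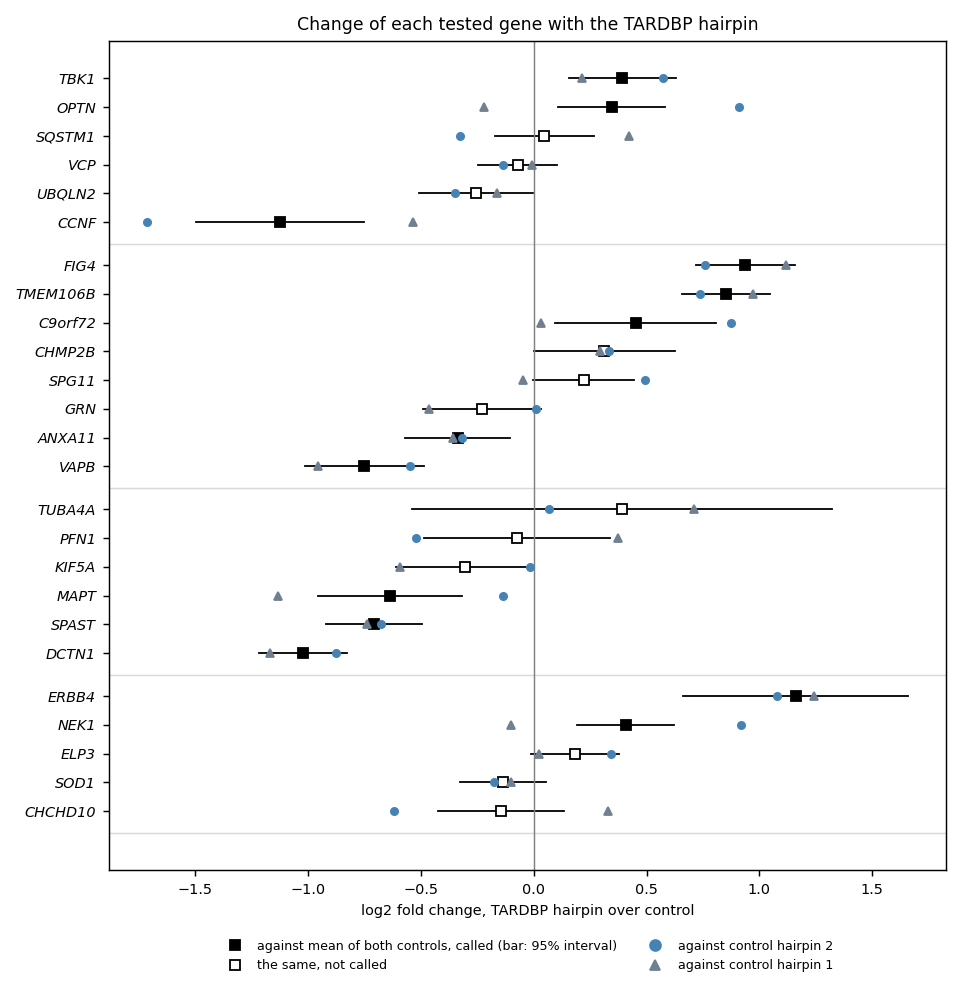
Log2 fold change of the 25 tested genes with the TARDBP hairpin. Squares are changes against the mean of both control hairpins, filled where called, with the 95% interval from the fit, circles against control hairpin 2 and triangles against control hairpin 1. Genes are grouped by role. For FIG4, TMEM106B, ERBB4, SPAST, ANXA11 and DCTN1 both controls give the same direction, whereas SQSTM1, OPTN, PFN1, NEK1 and CHCHD10 have the controls on opposite sides of 0.

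Among the 8 genes of endosomes, lysosomes and membrane contacts, 3 rose and 2 fell, where the background was 23.9% higher and 24.3% lower. With so few genes these counts are not read as results about the group. FIG4 encodes a phosphatase that works with the kinase PIKFYVE in turnover of the endosomal lipid PI(3,5)P2. It stood at 27.1 and 29.2 CPM under the TARDBP hairpin, 17.1 and 16.2 under control hairpin 2, and 13.2 and 12.7 under control hairpin 1. It rose by 0.94 (SE 0.0962, 1.92-fold, edgeR adjusted p = 1.35e-04), by 0.76 against control hairpin 2 and by 1.12 against control hairpin 1. The 3 groups of FIG4 values did not overlap, and control hairpin 2 was above control hairpin 1 (log2 fold change 0.36, adjusted p = 0.0367), a call lost without any one of the 4 control libraries (adjusted p = 0.0861 to 0.144) and by DESeq2. TMEM106B, a lysosomal membrane protein gene whose common variants are associated with the risk of FTD with GRN mutations, had 113 and 119 CPM under the TARDBP hairpin, 75.2 and 64.0 under control hairpin 2, and 60.2 and 58.1 under control hairpin 1. Both TARDBP hairpin libraries lay far above all 4 control libraries. TMEM106B rose by 0.85 (SE 0.0852, adjusted p = 1.20e-04), with 0.74 against control hairpin 2 and 0.97 against control hairpin 1, and the control hairpins were not called different (adjusted p = 0.0952).

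VAPB encodes a protein of the endoplasmic reticulum that ties it to other organelles. Its level was 34.8 and 43.0 CPM under the TARDBP hairpin, 60.5 and 53.2 under control hairpin 2, and 79.8 and 70.9 under control hairpin 1, so that the 3 hairpins formed 3 separate steps. VAPB fell by 0.75 (SE 0.115, adjusted p = 0.00104). Set against control hairpin 1 alone it fell by 0.95 (adjusted p = 6.09e-04), and against control hairpin 2 alone by 0.55 (adjusted p = 0.00840), the last call being lost without replicate 1 of the TARDBP hairpin (-0.40, adjusted p = 0.0517) or of control hairpin 2 (-0.46, adjusted p = 0.0552). Control hairpin 2 was itself lower than control hairpin 1 in VAPB (-0.41, adjusted p = 0.0315), which was lost without replicate 1 of control hairpin 1 (adjusted p = 0.175) or replicate 2 of control hairpin 2 (adjusted p = 0.195). The closely related gene VAPA, which was on a list of partner genes, did not follow it, at 47.4 and 48.7 CPM, 53.2 and 54.6 CPM and 27.9 and 32.5 CPM in the same order of hairpins. VAPA was called higher against the mean of both controls (0.25, adjusted p = 0.0448), with -0.17 against control hairpin 2 and 0.67 against control hairpin 1, and its libraries lay between the controls. Leaving out 1 library ended the VAPA call in all but 1 case (adjusted p up to 0.182), as did RLE scaling (adjusted p = 0.0534). The Ca2+-dependent lipid-binding gene ANXA11, whose product tethers RNA granules to lysosomes, stood at 36.1 and 32.5 CPM under the TARDBP hairpin, 39.3 and 46.2 under control hairpin 2, and 42.5 and 45.2 under control hairpin 1. Its fall was small (-0.34, SE 0.101, adjusted p = 0.0239), and the control hairpins were close to each other (-0.04). Against either control alone it was just called (adjusted p = 0.0475 and 0.0360 for control hairpins 2 and 1), and both calls were lost in most refits that left out 1 library (adjusted p up to 0.218).

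Runs of alternating U and G, the kind of RNA that TDP-43 binds, were looked for in the longest protein-coding transcript of each gene in GENCODE release 29, to show which of these transcripts carry one in the mature RNA. A run of at least 8 letters of TG repeats was present in 7 of the 26 genes, and in 25% of 13692 coding genes tested. A run of at least 30 letters was present in VAPB alone among the 26, and in 1.2% of the 13692. The sites are shown 5′ to 3′ as DNA letters, at most 30 bases each, with the run in capitals, and the longest run, in VAPB, continues beyond the window to 37 letters.
VAPB (3′ UTR): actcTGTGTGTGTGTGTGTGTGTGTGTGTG
SQSTM1 (3′ UTR): tcccTGTGTGTGTGTGTGctgatgtttcct
GRN (3′ UTR): tgttTGTGTGTGTGcgcgtgtgcgtttcaa
TMEM106B (3′ UTR): ttccTGTGTGTGTttgctgagaatgatggt
The 4 genes shown did not move alike, since VAPB fell, TMEM106B rose, and SQSTM1 and GRN were not called against the mean of both controls. The other 3 genes with a run, each of 8 letters, were ANXA11, C9orf72 and ERBB4. TDP-43 also binds introns, which these transcripts do not hold, and a run is a match of letters and not a site shown to be bound.

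C9orf72, in which expansion of an intronic repeat is the most common inherited cause of ALS and FTD in people of European descent, encodes part of a complex in autophagy and lysosome function. It had 32.6 and 36.8 CPM under the TARDBP hairpin, 22.2 and 15.8 under control hairpin 2, and 38.5 and 29.5 under control hairpin 1. The TARDBP hairpin libraries lay within the range of control hairpin 1 and above control hairpin 2. The call against the mean of both controls (0.45, adjusted p = 0.0413) came with 0.87 against control hairpin 2 (adjusted p = 0.00515) and 0.03 against control hairpin 1 (adjusted p = 0.911), and it was lost without either TARDBP hairpin library (0.53, adjusted p = 0.0726 without replicate 1, and 0.36, adjusted p = 0.213 without replicate 2). Scaling by library totals ended the call too (adjusted p = 0.0771). It was also lost without replicate 2 of control hairpin 2 (0.30, adjusted p = 0.125) or of control hairpin 1 (0.36, adjusted p = 0.106). SPG11, a gene for lysosome renewal, showed the same arrangement, at 109 and 118 CPM, 85.0 and 76.7 CPM and 129 and 106 CPM in the same order. It was higher against control hairpin 2 (0.49, adjusted p = 0.00786) and not called against control hairpin 1 (-0.05) or the mean of both (0.22, adjusted p = 0.0933). The call against control hairpin 2 was lost without replicate 2 of the TARDBP hairpin or of control hairpin 2 (adjusted p = 0.0509 and 0.0844), and SPG11 was called higher than the mean without replicate 1 of control hairpin 1 (0.29, adjusted p = 0.0374).

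GRN encodes progranulin, a secreted and lysosomal protein whose loss of 1 copy causes FTD. Its libraries held 152 and 113 CPM under the TARDBP hairpin, 129 and 135 under control hairpin 2, and 180.3 and 186 under control hairpin 1. The TARDBP hairpin libraries spanned both control hairpin 2 libraries, and control hairpin 1 lay above all of them. GRN was lower than in control hairpin 1 (-0.46, adjusted p = 0.0209), except without replicate 2 of the TARDBP hairpin (-0.27, adjusted p = 0.104) or either control hairpin 1 library (adjusted p = 0.0593 and 0.0774). It was not called against control hairpin 2 (0.01, 95% interval -0.29 to 0.31) or the mean of both (-0.23, adjusted p = 0.133). Against that mean it was called without replicate 1 of the TARDBP hairpin (-0.46, adjusted p = 0.0123) and, barely, when libraries were scaled by their totals only (-0.29, adjusted p = 0.0499). CHMP2B, a subunit of the ESCRT-III complex that closes endosomal vesicles, stood at 14.6 and 15.01 CPM under the TARDBP hairpin, 11.7 and 11.8 under control hairpin 2, and 13.9 and 10.3 under control hairpin 1. Both TARDBP hairpin libraries lay above all 4 controls, but the change was not called (0.31, 95% interval -0.001 to 0.63, adjusted p = 0.0910), except without replicate 1 of control hairpin 1 (0.42, adjusted p = 0.0256).

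Of the 6 genes of the cytoskeleton and axonal transport, 3 fell and none rose, where the background was 24.3% lower and 23.9% higher. The number called lower was 2 against control hairpin 2 and 4 against control hairpin 1. With so few genes these counts are not read as results about the group. DCTN1 encodes the largest subunit of dynactin, which couples the motor dynein to its cargo and to microtubules. It had 71.5 and 70.6 CPM under the TARDBP hairpin, 137 and 124 under control hairpin 2, and 167 and 152 under control hairpin 1. The 2 TARDBP hairpin libraries were nearly equal, and every control library was higher by more than the spread among the controls. DCTN1 fell by 1.02 (SE 0.0850, to 49.2% of the control level, adjusted p = 5.09e-05), the lowest p of the 25. It fell by 0.88 against control hairpin 2 and by 1.17 against control hairpin 1. SPAST, which encodes spastin, an ATPase that cuts microtubules, was at 34.8 and 32.4 CPM under the TARDBP hairpin, 57.6 and 50.1 under control hairpin 2, and 55.5 and 56.7 under control hairpin 1. Its controls overlapped, and it fell by nearly the same amount against control hairpin 2 (0.68) and control hairpin 1 (0.74), with a change of -0.71 against their mean (SE 0.0929, adjusted p = 4.67e-04).

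MAPT encodes the microtubule-binding protein tau. It stood at 16.2 and 12.2 CPM under the TARDBP hairpin, 16.6 and 14.7 under control hairpin 2, and 32.5 and 29.8 under control hairpin 1. The TARDBP hairpin and control hairpin 2 overlapped, and control hairpin 1 was about 2 times as high as either. MAPT accordingly fell against control hairpin 1 (-1.13, adjusted p = 6.52e-04) and against the mean of both controls (-0.64, adjusted p = 0.00598), but was not called against control hairpin 2 (-0.14, 95% interval -0.50 to 0.23, adjusted p = 0.494). The call against the mean was lost without replicate 2 of the TARDBP hairpin (-0.44, adjusted p = 0.0508). The neuronal kinesin motor gene KIF5A had a similar arrangement, at 50.8 and 53.6 CPM, 58.3 and 47.3 CPM and 90.1 and 67.5 CPM in the same order. KIF5A was lower than in control hairpin 1 (-0.59, adjusted p = 0.0138), lay at -0.02 against control hairpin 2, and was not called against the mean (adjusted p = 0.0909). The first call was lost without replicate 1 of the TARDBP hairpin (adjusted p = 0.0647) or of control hairpin 1 (adjusted p = 0.0929), and KIF5A was called lower than the mean without replicate 2 of control hairpin 1 or of control hairpin 2 (-0.41 in both, adjusted p = 0.0243 and 0.0460). PFN1, profilin, which feeds actin monomers to growing filaments, varied between libraries of the same hairpin, at 377 and 292 CPM, 401 and 559 CPM and 214 and 303 CPM. Its 95% interval against the mean of both controls, -0.49 to 0.34, was wide, and control hairpin 2 was higher than control hairpin 1 (0.89, adjusted p = 0.00955), a call lost without replicate 1 of control hairpin 1 or replicate 2 of control hairpin 2 (adjusted p = 0.0677 and 0.0654). Against control hairpin 2 PFN1 was at -0.52 (adjusted p = 0.0656), and 5 alternatives called it lower there. These were DESeq2 (-0.55, adjusted p = 0.0174), scaling by library totals (-0.56, adjusted p = 0.0337), and leaving out replicate 1 of control hairpin 2 (-0.75, adjusted p = 0.0304), replicate 1 of control hairpin 1 (-0.53, adjusted p = 0.0424) or replicate 2 of control hairpin 1 (-0.53, adjusted p = 0.0428). Leaving out replicate 2 of control hairpin 2 moved it to -0.30, and leaving out replicate 2 of the TARDBP hairpin to -0.35. TUBA4A, an alpha tubulin gene, had only 16 and 11, 8 and 19 and 8 and 9 counts in the same order, and its 95% interval of -0.54 to 1.32 was too wide for a 1.5-fold change to be detectable at this depth.

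Of the 6 genes of protein quality control and autophagy, OPTN and TBK1 rose and CCNF fell, where the background was 23.9% higher and 24.3% lower. CCNF encodes cyclin F, the substrate receptor of a ubiquitin ligase, whose level is known to peak late in the cell cycle. It stood at 12.5 and 10.5 CPM under the TARDBP hairpin, 34.4 and 41.2 under control hairpin 2, and 14.1 and 19.3 under control hairpin 1. The hairpins did not overlap, and control hairpin 2 was 2.26 times as high as control hairpin 1 (1.18, adjusted p = 0.00115). CCNF fell by 1.13 against the mean of both controls (SE 0.162, adjusted p = 7.54e-04), by 1.72 against control hairpin 2 and by 0.54 against control hairpin 1 (adjusted p = 0.0434). The last of these calls was lost without replicate 1 (-0.67, adjusted p = 0.0546) or replicate 2 (-0.42, adjusted p = 0.188) of the TARDBP hairpin, and without replicate 2 of control hairpin 1 (-0.30, adjusted p = 0.261). With the 4 control libraries pooled as one group CCNF was not called (-1.24, adjusted p = 0.116). A list of 22 partners of cyclin F and G2/M genes moved with it, summing to 264 and 287 CPM under the TARDBP hairpin, 1256 and 1337 CPM under control hairpin 2, and 392 and 529 CPM under control hairpin 1. Of the 22, 19 fell and none rose (median -2.22), or 86.4% lower, where the background was 24.3% lower and 23.9% higher. The proliferation marker MKI67 stood at -6.61, the topoisomerase gene TOP2A at -3.89 and the ribonucleotide reductase gene RRM2 at -3.28. In control hairpin 2, 19 of the 22 were higher than in control hairpin 1 (median 2.06), or 86.4%, beside a background of 22.8%. The fall of CCNF and the difference in cell-cycle genes cannot be told apart here.

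The 250 bases before the annotated start of CCNF were searched for CCAAT and TTTGAA on both strands, the letters of the CCAAT box and of the CHR element that occur together before many G2/M genes. The sequences are RefSeq's, build GRCh38.p14, plus strand, printed 5′ to 3′ with matches in capitals, and TMEM106B is shown beside CCNF because it holds 1 of the same matches and rose.
CCNF (chr16:2429197-2429446): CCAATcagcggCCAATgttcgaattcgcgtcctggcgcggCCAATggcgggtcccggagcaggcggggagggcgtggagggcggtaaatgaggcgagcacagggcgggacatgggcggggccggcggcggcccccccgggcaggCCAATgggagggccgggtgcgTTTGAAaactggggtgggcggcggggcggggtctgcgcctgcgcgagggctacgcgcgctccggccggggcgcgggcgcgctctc
TMEM106B (chr7:12211044-12211293): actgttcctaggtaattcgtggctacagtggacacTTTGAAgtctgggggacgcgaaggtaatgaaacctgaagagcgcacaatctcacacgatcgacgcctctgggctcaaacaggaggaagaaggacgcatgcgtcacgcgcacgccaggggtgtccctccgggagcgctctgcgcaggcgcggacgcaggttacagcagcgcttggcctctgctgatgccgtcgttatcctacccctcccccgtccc
CCNF held 4 matches to CCAAT, the nearest starting 106 bases before the start, and 1 match to TTTGAA 85 bases before it. At least 4 matches to CCAAT occurred in 0.87% of the 35116 promoters of the table, at least 1 in 32.0%, TTTGAA in 13.3% and both in 4.7%. Promoters of 21 of the 26 genes were in the table, and besides CCNF only C9orf72 held both within a single promoter, while ANG held each in a different one. A match of letters is a description of these windows and no evidence of binding.

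OPTN and SQSTM1 encode receptors that link ubiquitinated cargo to the autophagosome, and TBK1 encodes the kinase that phosphorylates both. OPTN had 33.5 and 34.5 CPM under the TARDBP hairpin, 19.5 and 16.7 under control hairpin 2, and 42.3 and 37.0 under control hairpin 1. Its TARDBP hairpin libraries lay between the controls and nearer to control hairpin 1. OPTN rose against control hairpin 2 (0.91, adjusted p = 5.48e-04) and was not called against control hairpin 1 (-0.22, adjusted p = 0.168), and the controls differed by -1.13 (adjusted p = 2.83e-04). The rise against their mean (0.35, adjusted p = 0.0236) was lost without any one of 4 libraries, namely either TARDBP hairpin library (0.36 and 0.32, adjusted p = 0.0777 and 0.117 without replicates 1 and 2) or replicate 2 of control hairpin 2 (0.26, adjusted p = 0.0993) or of control hairpin 1 (0.29, adjusted p = 0.0714). It was not called by DESeq2 (adjusted p = 0.0642) or with libraries scaled by their totals (adjusted p = 0.0676). TBK1 was at 39.4 and 44.8 CPM under the TARDBP hairpin, 29.5 and 27.2 under control hairpin 2, and 39.3 and 33.3 under control hairpin 1. The lower TARDBP hairpin library was only just above the higher library of control hairpin 1. Against control hairpin 2 it was higher (0.57, adjusted p = 0.00535), except without replicate 2 of that hairpin (0.48, adjusted p = 0.0549), and against control hairpin 1 it was not called (0.21, adjusted p = 0.190). The controls differed by -0.36 (adjusted p = 0.0447), a call lost without replicate 1 of control hairpin 1 or either library of control hairpin 2 (adjusted p up to 0.263). Against the mean of both TBK1 rose by 0.39 (SE 0.104, adjusted p = 0.0143), a call lost without replicate 2 of the TARDBP hairpin (0.30, adjusted p = 0.127) or of control hairpin 2 (0.33, adjusted p = 0.0595).

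SQSTM1, also called p62, was the only one of the 25 called in opposite directions against the 2 controls. It stood at 216 and 182 CPM under the TARDBP hairpin, 245 and 255 under control hairpin 2, and 139 and 159 under control hairpin 1, so that the knockdown lay between controls that did not overlap with it. It was lower than in control hairpin 2 (-0.33, adjusted p = 0.0382) and higher than in control hairpin 1 (0.42, adjusted p = 0.0160). The first call was lost without replicate 2 of the TARDBP hairpin or without either library of control hairpin 2 (adjusted p up to 0.235), and the second without replicate 1 of the TARDBP hairpin or of control hairpin 1 (adjusted p up to 0.118). VCP, an ATPase that extracts ubiquitinated proteins from complexes and membranes, was at 226 and 223 CPM under the TARDBP hairpin, 242 and 252 under control hairpin 2, and 214 and 237 under control hairpin 1. Its change was -0.07 (95% interval -0.25 to 0.10), which leaves out a change of 1.5-fold in either direction. UBQLN2, an X-linked gene for a shuttle of ubiquitinated proteins to the proteasome, was at 37.6 and 32.8 CPM, 40.8 and 48.9 CPM and 41.3 and 37.5 CPM in the same order and was called only against control hairpin 2 (-0.35, adjusted p = 0.0461). That call was lost by DESeq2 (adjusted p = 0.0515) and without replicate 2 of the TARDBP hairpin, replicate 2 of control hairpin 2 or either library of control hairpin 1 (adjusted p up to 0.227). UBQLN2 was called lower than the mean of both controls without replicate 1 of control hairpin 2 (-0.33, adjusted p = 0.0489) and with libraries scaled by their totals (-0.31, adjusted p = 0.0344).

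In the remaining genes, ERBB4 showed the largest rise of the 25. ERBB4 encodes a receptor tyrosine kinase for neuregulins. It stood at 14.4 and 17.0 CPM under the TARDBP hairpin, 5.21 and 9.56 under control hairpin 2, and 5.81 and 7.44 under control hairpin 1. Both TARDBP hairpin libraries exceeded all 4 controls, although the control hairpin 2 libraries stood far apart. ERBB4 rose by 1.16 (SE 0.218, 2.24-fold, adjusted p = 0.00283), by 1.08 against control hairpin 2 and by 1.24 against control hairpin 1. NEK1, a kinase gene of cilia and DNA repair, had 52.7 and 61.3 CPM under the TARDBP hairpin, 32.0 and 28.4 under control hairpin 2, and 60.6 and 61.7 under control hairpin 1. Control hairpin 2 stood alone, well below both other hairpins, with 0.92 for the TARDBP hairpin against it (adjusted p = 3.31e-04) and -0.10 against control hairpin 1 (adjusted p = 0.488). The call against the mean (0.41, adjusted p = 0.00776) was lost without replicate 2 of the TARDBP hairpin (0.29, adjusted p = 0.0892).

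SOD1, the cytosolic superoxide dismutase and the first gene linked to familial ALS, was at 59.1 and 62.2 CPM under the TARDBP hairpin, 66.3 and 70.7 under control hairpin 2, and 61.4 and 68.6 under control hairpin 1. Its change of -0.14 (95% interval -0.33 to 0.05) was not called, and its interval leaves out a 1.5-fold change either way. ELP3, the catalytic subunit of the Elongator complex that modifies tRNA, stood at 35.6 and 35.3 CPM under the TARDBP hairpin, 27.5 and 28.4 under control hairpin 2, and 36.1 and 33.8 under control hairpin 1. It was called only against control hairpin 2 (0.34, adjusted p = 0.0194), not by DESeq2 there (adjusted p = 0.0717) and not without any one library of either hairpin (adjusted p up to 0.0951). CHCHD10, a protein gene of the mitochondrial intermembrane space, lay between the controls at 10.3 and 9.76 CPM, 14.5 and 16.4 CPM and 7.65 and 8.37 CPM in the same order. It was lower than in control hairpin 2 (-0.62, adjusted p = 0.00622) and at 0.33 against control hairpin 1 (adjusted p = 0.0991). ANG, which encodes the secreted ribonuclease angiogenin, had 3 and 5 counts under the TARDBP hairpin, 2 and 6 under control hairpin 2, and 4 and 8 under control hairpin 1, too few to test.

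Exons of 9 of the 26 genes overlap exons of another gene of the count files in GENCODE release 29, on the opposite strand for 8 of them, and the libraries keep strand, but no source used here states the strand setting of the counting. Overlapping genes with counts comparable to the disease gene were MGAT4B for SQSTM1 (946 to 3172 counts over the 6 libraries, against 2717 to 5408), EIF3J for SPG11 (770 to 1090, against 1614 to 2524), MMP11 for CHCHD10 (718 to 1414, against 150 to 348) and STK16 for TUBA4A (258 to 331, against 8 to 19). The levels of these 4 genes, and of ANG, whose exons overlap RNASE4 on the same strand, are therefore uncertain. For OPTN the opposite-strand gene CCDC3 had 60 to 128 counts, against 354 to 829, so part of the OPTN level is uncertain too. FIG4, TMEM106B, ERBB4, SPAST and VAPB had no such overlap, and for DCTN1 the antisense gene DCTN1-AS1 had at most 4 counts.

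Leaving out each library in turn separated the 13 called genes. For 7 of them, namely FIG4, TMEM106B, ERBB4, DCTN1, SPAST, VAPB and CCNF, the call against the mean of both controls held in all 6 refits, with adjusted p up to 0.0250. The other 6 lost the call in at least 1 refit, all 6 of them without replicate 2 of the TARDBP hairpin, where NEK1, C9orf72, OPTN, TBK1, MAPT and ANXA11 (-0.27, adjusted p = 0.162) were not called. ANXA11 was also not called without replicate 2 of control hairpin 1 (-0.32, adjusted p = 0.0577). Without replicate 2 of the TARDBP hairpin 5711 genes and families were called, against 8269 with it.

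**Figure D3:**
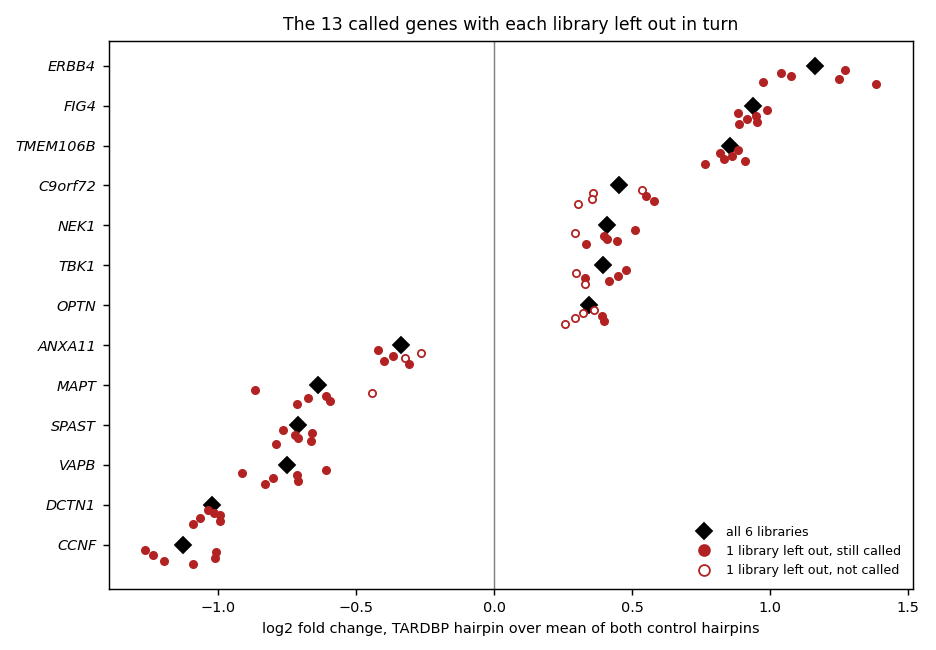
Log2 fold change against the mean of both control hairpins for the 13 called genes, with all 6 libraries (diamonds) and with each library left out in turn (circles, filled where still called). The 7 genes with only filled circles are ERBB4, FIG4, TMEM106B, SPAST, VAPB, DCTN1 and CCNF.

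The partners of these genes were read from 10 lists of pathway and complex members. Partners of DCTN1 and KIF5A in dynein, dynactin and kinesin-1 fell in 9 of 25 and rose in 1 (36% and 4%), with a median of -0.17. Of these partners 8 fell and 2 rose against control hairpin 2 (32% and 8%, background 26.2% and 24%). Set against control hairpin 1 alone, 10 fell and none rose (40% and 0%, background 21.8% and 21.1%). Between the controls, 7 were lower and 4 higher in control hairpin 2 (28% and 16%, median -0.25). Their summed CPM was 2293 and 2326 under the TARDBP hairpin and 2470 and 2298 under control hairpin 2. Under control hairpin 1 it was 3147 and 2883. Among dynactin subunits the filament protein gene ACTR1A fell by 1.10 (adjusted p = 6.36e-05), close to DCTN1 in size, at 54.7 and 47.1 CPM under the TARDBP hairpin, 94.5 and 103 under control hairpin 2, and 116 and 125 under control hairpin 1. DCTN2 (-0.54) and DCTN4 (-0.58) fell less, and the sole rise was DCTN5 (0.35, adjusted p = 0.00602), at 0.69 against control hairpin 2 and 0.01 against control hairpin 1, and not called without replicate 2 of the TARDBP hairpin (0.27, adjusted p = 0.0717). Microtubule and actin partners fell in 14 of 25 and rose in 1 (median -0.47). The formin gene DIAPH1 fell by 1.12, the tubulin gene TUBB2A by 1.50 and CDK5R1, the activator of the tau kinase CDK5, by 1.30, while the actin polymerase gene ENAH rose by 0.65. Against control hairpin 2, 16 of this list fell and 1 rose (64% and 4%, background 26.2% and 24%). Against control hairpin 1, 7 fell and 4 rose (28% and 16%, background 21.8% and 21.1%). Between the controls the same list was higher in control hairpin 2 in 15 of 25 and lower in 1 (60% and 4%, background 22.8% and 20.4%). Its median difference between the control hairpins was 0.59. Against the mean of both controls, the background for both lists was 24.3% lower and 23.9% higher.

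Lysosomal genes related to GRN and TMEM106B fell in 17 of 24 and rose in 1 (median -0.44), against the background of 24.3% lower, and TMEM106B thus moved against most of them. The sialidase gene NEU1 fell by 1.49 and the protective protein gene CTSA, which stabilises NEU1, by 1.05. The sole rise was the lysosomal membrane protein gene LAMP2 (0.46, adjusted p = 0.00220). The summed level of the 24 genes was 1634 and 1527 CPM under the TARDBP hairpin, 2235 and 2047 CPM under control hairpin 2 and 2415 and 2179 CPM under control hairpin 1. Partners of C9orf72, FIG4, SPG11 and VAPB fell in 8 of 13 and rose in 3 (median -0.30), or 61.5% and 23.1%. The background was 24.3% lower and 23.9% higher. Set against control hairpin 2 alone, 6 of the 13 fell and 1 rose (46.2% and 7.69%, background 26.2% and 24%). Set against control hairpin 1 alone, 9 fell and 3 rose (69.2% and 23.1%, background 21.8% and 21.1%). Between the controls, 5 were lower and 2 higher in control hairpin 2 (38.5% and 15.4%, background 20.4% and 22.8%). With so few genes these shares are not read as results about the list. SMCR8, which forms a complex with C9orf72, fell by 0.99 (adjusted p = 1.62e-04), at 40.5 and 36.9 CPM under the TARDBP hairpin, 66.0 and 61.0 under control hairpin 2, and 102 and 84.2 under control hairpin 1. ATL1, the atlastin gene of the endoplasmic reticulum, fell by 1.53 and REEP1, another shaper of that membrane, by 1.90. The rises were AP5M1 (0.71), a subunit of the adaptor complex that acts with SPG11, RMDN3 (0.53), a mitochondrial partner of VAPB, and VAPA, given above.

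Selective autophagy genes rose in 9 of 29 and fell in 6 (median 0.08), or 31.0% and 20.7%, close to the background of 23.9% higher and 24.3% lower. Against control hairpin 2, 11 rose and 5 fell (37.9% and 17.2%, background 24% and 26.2%). Against control hairpin 1, 5 rose and 10 fell (17.2% and 34.5%, background 21.1% and 21.8%). The ubiquitin-like conjugation gene ATG12 rose by 0.88, the receptor gene TAX1BP1 by 0.64 and the TBK1 adaptor gene AZI2 by 0.50, while ATG9A, the membrane-spanning autophagy protein gene, fell by 1.29, ATG101 by 0.70 and WIPI2 by 0.68. ATG9A was at 15.3 and 12.6 CPM under the TARDBP hairpin, 34.0 and 36.0 under control hairpin 2, and 33.1 and 32.8 under control hairpin 1, so that the controls were close to each other and far above the knockdown. Cofactors of VCP and the ubiquilins fell in 7 of 21 and rose in 2 (median -0.16), or 33.3% and 9.52% against the same background. Although VCP itself was not called, its membrane cofactor gene FAF2 fell by 1.47 (adjusted p = 1.38e-05), DERL2 by 1.05 and the UBQLN2 relative UBQLN4 by 1.14, and UBXN2A (0.74) and UBXN4 (0.46) rose. UBXN4 was not called without replicate 2 of the TARDBP hairpin (0.29, adjusted p = 0.147). ESCRT genes, the partners of CHMP2B, fell in 10 of 26 and rose in 6 (median -0.02), or 38.5% and 23.1%, with VPS37B at -1.21, CHMP6 at -1.19 and SNF8 at -0.74 among the falls and VPS4B (0.56), STAM2 (0.48) and CHMP3 (0.44) among the rises.

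Partners of SOD1 and CHCHD10 fell in 6 of 19 and rose in 2 (median -0.13), or 31.6% and 10.5%, where the background was 24.3% and 23.9%. Against control hairpin 2, 8 fell and 2 rose (42.1% and 10.5%, background 26.2% and 24%). Against control hairpin 1, 3 fell and 4 rose (15.8% and 21.1%, background 21.8% and 21.1%), so the list depended on the control. The catalase gene CAT fell by 0.90, the mitochondrial import gene CHCHD4 by 0.86 and the peroxiredoxin gene PRDX5 by 0.65, and the mitochondrial membrane genes SAMM50 (0.64) and OPA1 (0.41) rose. Among partners of ELP3, ANG and ERBB4, 5 of 13 rose and 3 fell (median 0.09), or 38.5% and 23.1%. Set against control hairpin 2 alone, 3 rose and 2 fell (23.1% and 15.4%, background 24% and 26.2%). Set against control hairpin 1 alone, 4 rose and 2 fell (30.8% and 15.4%, background 21.1% and 21.8%). With so few genes these shares are not read as results about the list. With ERBB4, its relatives EGFR (0.81, adjusted p = 2.05e-04) and ERBB2 (0.90, adjusted p = 0.00131) rose, as did the neuregulin genes NRG1 (0.87) and NRG2 (0.40), ligands of this receptor family. Pooling the control libraries as one group ended the calls of ERBB2 (0.77, adjusted p = 0.259), NRG1 (0.78, adjusted p = 0.176) and NRG2 (0.40, adjusted p = 0.172). The 1.5-fold test did not call ERBB2 either (adjusted p = 0.0552). EGFR stood at 83.5 and 92.1 CPM under the TARDBP hairpin, 47.7 and 46.4 under control hairpin 2, and 57.5 and 48.7 under control hairpin 1, and NRG1 at 104 and 122 CPM, 86.5 and 88.8 CPM and 38.8 and 49.4 CPM in the same order. Neither gene overlapped with its controls. The protease gene ADAM17, which releases such ligands, fell by 0.50, and among Elongator subunits ELP6 (-0.44) fell and ELP4 (0.69) rose. The NRG2 call was lost without 5 of the 6 libraries in turn (adjusted p up to 0.155) and by DESeq2 (adjusted p = 0.131), and that of ELP6 without replicate 1 of the TARDBP hairpin (adjusted p = 0.116).

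**Figure D4:**
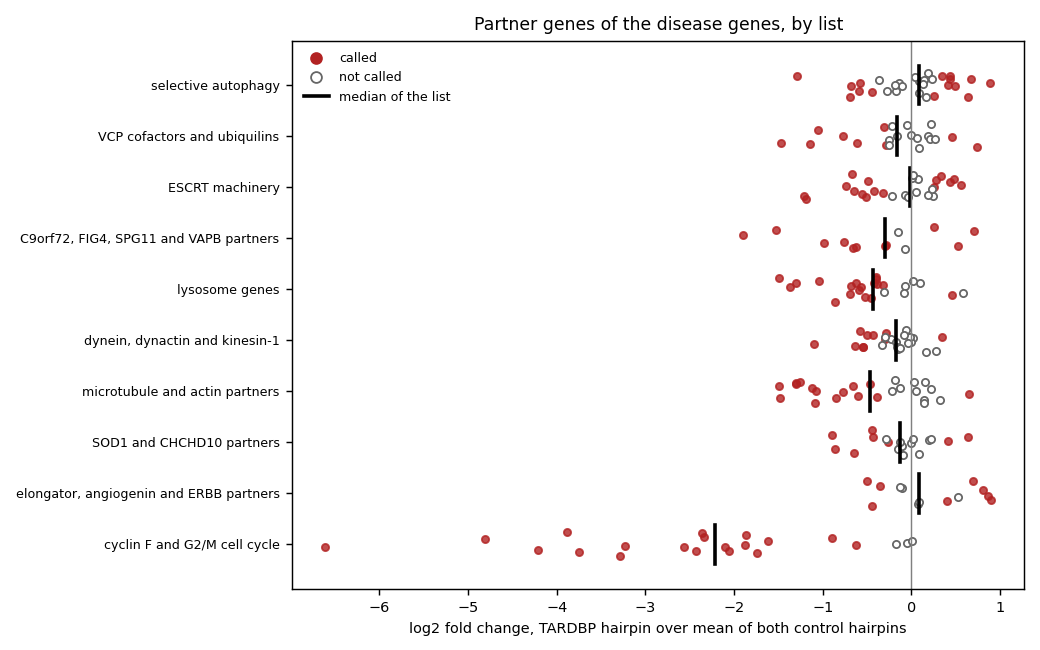
Log2 fold change of each tested partner gene with the TARDBP hairpin against the mean of both control hairpins, by list. Red points were called, open points were not, and black bars are list medians, from -2.22 for cyclin F and G2/M genes to 0.09 for partners of ELP3, ANG and ERBB4.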

How the data were processed

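The submitters' processing notes name bcl2fastq, STAR 2.5.2b and build hg19. The authors deposited whole-number counts per gene symbol and repeat family, 1 file per library, from Trizol RNA depleted of rRNA and made into strand-specific libraries, per the labels' protocols. No source used here states the counting tool, annotation, strand setting or handling of multiply matching reads. Counts were analysed in R 4.3.3 with edgeR 4.0.16. Of 28953 rows 17163 passed filterByExpr by hairpin (minimum count 10, minimum total 15). Libraries were scaled by TMM, and all 6 libraries entered a single quasi-likelihood model of the 3 hairpins, which leaves 3 residual degrees of freedom. Adjustment was by Benjamini and Hochberg over all rows tested. SE came from the fold change and its F statistic, and 95% intervals use the fit's degrees of freedom. Both cover only the spread between libraries of the same hairpin, and not the difference between the control hairpins. The code was tested on simulated data.

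The 26 genes and the partner lists were chosen with earlier results of these data known, so no list is independent support. All 26 genes are named. From each partner list, all called genes are named where 5 or fewer went 1 way, and otherwise the 3 with the lowest p, except that some items are not reported here. Alternatives were RLE scaling, DESeq2 1.42.0, no filter, repeats left out, glmTreat, a replicate block, pooled controls, each library left out in turn and, added after seeing the data, scaling by library total. Promoters came from RefSeq (GRCh38.p14) and transcripts from GENCODE release 29 (GRCh38), and neither build is that of the counts.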

Additional observations from a re-analysis of the deposited data

How the results depend on the processing

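Against the mean of both control hairpins 7 disease genes were called higher and 6 lower. Over all 17163 genes and families tested, 8269 were called there. That count was 2462 with the test set against a 1.5-fold change and 2572 with pooled controls, so calls dropped over everything tested too. Among the disease genes, the 1.5-fold test left 3 higher (TMEM106B, FIG4 and ERBB4) and 2 lower (CCNF and DCTN1). With the 4 control libraries pooled as one group, the only setting that counts the difference between the control hairpins as spread, there were 3 higher (the same 3 genes) and 3 lower (VAPB, DCTN1 and SPAST). Leaving out 1 library gave 3 to 9 higher and 4 to 7 lower. In that comparison the partner lists held 30 higher and 99 lower genes, against 3 and 41 with the 1.5-fold test, 5 and 41 with pooled controls, and 21 to 29 and 77 to 96 with 1 library left out.

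Against control hairpin 2, 9 were higher and 8 lower, against 2 and 2 with the 1.5-fold test, 5 lower with repeat families left out, and 6 to 9 and 5 to 7 with 1 library left out. Against control hairpin 1, 4 were higher and 8 lower, against 3 lower with the 1.5-fold test, and 3 to 4 and 5 to 8 with 1 library left out. Between the control hairpins 5 were higher and 11 lower in control hairpin 2, against 2 and 3 with the 1.5-fold test, and 3 to 5 and 3 to 10 with 1 library left out. Where 1 library was left out, the lone library of that hairpin was assumed to vary like the others. Over all 17163 genes and families, 8618 were called against control hairpin 2, 7364 against control hairpin 1 and 7418 between the controls. With the 1.5-fold test these counts were 2981, 2622 and 2110.

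The labels do not say whether libraries with the same replicate number shared a batch. Differences between replicates correlated at -0.25 and -0.23 between the TARDBP hairpin and control hairpins 2 and 1, and at 0.23 between the controls. With 2 libraries per hairpin these correlations cannot settle it. With a replicate block 5 were lower against control hairpin 2, and the other counts moved by at most 1.5 times. Of 1325 values of the 25 genes under the alternatives none reversed a called change, 152 lost a call and 14 gained one. At this depth and with 2 libraries per hairpin, the smallest change called among the 25 disease genes against the mean of both controls was 1.26-fold, for ANXA11. The partner gene VAPA was called at a smaller change (0.25). The cause of each lost call was not tested.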
